A study of Arabidopsis thaliana with 3 samples.

Results

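Intergenic DNA that lies away from gene starts held 515 of the 3552 regions (14.5%) bound by the SEP3-AG(AP1-I) complex. A peak was counted here where its midpoint lay in no protein-coding gene and in no stretch of 3000 bp upstream, by strand, of the start of one, with 27444 nuclear protein-coding genes of the annotation considered. Of the other 3037 peaks, 1452 (40.9%) lay in such an upstream stretch and 1585 (44.6%) in a protein-coding gene. The rule used positions alone, and no sequence or strength of binding entered it.

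The study measured binding by seq-DAP-seq, in which a complex is purified by a tag on each partner in turn and the DNA it retains is sequenced. SEP3 with a 3xFLAG tag and a chimeric AG with a 5xMyc tag, in which the I domain of AP1 stood in place of its own, were made together in vitro by coupled transcription and translation. The complex was offered sheared genomic DNA of Arabidopsis thaliana seedlings grown for 2 weeks in long days, and input DNA served as its control. The 3 replicates were joined by the authors into 1 list of peaks of 400 bp, with no read count or score, so that no value here has a spread between replicates, and the depth of each replicate is not analysed here. The SEP3-AG complex that the study set beside it is not analysed here, and DNA offered in vitro carries no nucleosomes.

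MADS transcription factors bind DNA as dimers through a conserved MADS domain, and pairs of dimers can join in a tetramer that holds 2 sites. Their target is the CArG box, which reads CC, then 6 letters A or T, then GG on either strand, often with TT before it and AA after it. SEP3 and AG take part in specifying the organs of the flower, AG in the stamens and carpels. In a genome, boxes of this kind also occur far from genes, in spacers, pseudogenes and repeated DNA, where a protein offered naked DNA can meet them.

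The highest-scoring sites of these intergenic peaks lay in copies of a single repeated element. Of the 8 highest-scoring members, 6 carried the same 16 bp site, tttCCAAAAATGGaaa in the orientation shown and a score of 17.7 or 17.8 bits, against a median of 10.8 bits over the 515 members. The score is the log2 ratio of a 16 bp palindromic matrix to the base composition, from a matrix fitted on the other peaks. All 6 belonged to a family of 16 peaks that shared sequence with one another, and all 16 were members, on 5 chromosomes. The element of 65 bp that they share holds 2 sites with 23 bp between their cores, called its first and second site here. Some copies hold a further site between these. In the copy at chr4:4099353-4099417 it scored 10.2 bits, with 6 and 7 bp to the cores on either side. Copies of the element in 9 of the peaks are printed below, in its direction, to show what is constant and what varies between bound copies. Only the 10 bp cores of the first and second site are in capitals. The first 5 keep a canonical second core, and the last 4 carry one that is not canonical.
chr5:9891871-9891935, plus strand: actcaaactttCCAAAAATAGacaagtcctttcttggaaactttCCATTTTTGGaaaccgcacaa
chr1:15805583-15805647, minus strand: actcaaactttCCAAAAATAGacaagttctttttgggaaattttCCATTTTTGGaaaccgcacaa
chr3:13194796-13194860, plus strand: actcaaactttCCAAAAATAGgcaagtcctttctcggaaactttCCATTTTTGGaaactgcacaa
chr4:4099353-4099417, plus strand: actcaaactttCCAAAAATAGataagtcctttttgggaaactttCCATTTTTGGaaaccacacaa
chr3:16340165-16340229, minus strand: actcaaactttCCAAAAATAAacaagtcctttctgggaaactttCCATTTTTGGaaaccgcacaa
chr2:5059514-5059578, plus strand: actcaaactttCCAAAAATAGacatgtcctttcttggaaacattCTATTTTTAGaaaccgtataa
chr4:5015500-5015564, plus strand: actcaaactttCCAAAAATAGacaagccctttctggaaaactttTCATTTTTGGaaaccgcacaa
chr4:4678966-4679030, plus strand: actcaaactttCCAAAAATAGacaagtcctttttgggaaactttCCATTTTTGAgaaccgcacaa
chr5:13074706-13074770, minus strand: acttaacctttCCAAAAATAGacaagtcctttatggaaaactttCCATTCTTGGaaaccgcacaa

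All sequences here were read from the RefSeq copy of the TAIR10 genome. A further 4 copies that lay in no peak are printed for contrast. The first differs from the first bound copy at a single base, and every 31-mer centred in it occurs elsewhere in the genome. The second has a first site that scores 0.938 bits, below the threshold for a site, beside a second site of 17.7 bits. The other two score 17.8 and 9.78 bits at the second site and 7.53 and 8.91 bits at the first. Bound copies had such scores too. That at chr3:16340165-16340229 also scored 7.53 bits at the first site, below the threshold of 7.83 bits there, and 17.8 bits at the second. The bound copy at chr4:4678966-4679030 scored 9.70 bits at the second site.
chr1:13889079-13889143, minus strand: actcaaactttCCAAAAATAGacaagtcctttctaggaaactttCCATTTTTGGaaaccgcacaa
chr2:5335933-5335997, minus strand: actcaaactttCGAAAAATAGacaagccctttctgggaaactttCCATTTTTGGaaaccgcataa
chr3:12736594-12736658, plus strand: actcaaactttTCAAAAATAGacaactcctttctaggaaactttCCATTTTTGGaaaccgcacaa
chr3:12825134-12825198, plus strand: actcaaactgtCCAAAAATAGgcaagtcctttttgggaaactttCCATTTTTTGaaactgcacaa

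The genome held 41 copies of this element at 80% identity or more, in 10 places on chromosome 2, 11 on chromosome 3 and 5 to 8 on each of the others. Of the 41 copies, 39 lay in the intergenic DNA away from gene starts, and 14 (34.1%, Wilson 95% interval 21.6 to 49.5%) lay in a peak. The remaining 2 of the 16 peaks share sequence with the others but hold no copy at this identity. Copies with a canonical second core lay in a peak in 6 of 25 cases (24.0%, 11.5 to 43.4%), and copies with a changed second core in 8 of 16 (50%, 28.0 to 72.0%), and these intervals overlap. Copies in which both sites passed the threshold lay in a peak in 13 of 34 cases (38.2%), against 1 of 6 (16.7%) where 1 site passed, with intervals of 23.9 to 55.0% and 3.01 to 56.4%.

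Copies were also divided by how much of their sequence is distinct. Where at least 50% of the bases stood at the middle of a 31-mer found once in the genome, 8 of 17 copies (47.1%, 26.2 to 69.0%) lay in a peak. Below that, 6 of 24 (25%, 12.0 to 44.9%) did, and these intervals overlap. Of the 9 copies with no such base, 0 lay in a peak, which allows a share of up to 33.3% if 3 counts are taken as the limit (Wilson upper bound 29.9%). Reads from within identical stretches cannot be placed on 1 copy, and the part of this in the list was not tested. Among the 10 copies that were mostly distinct and had a second site of 15 bits or more, 5 were in a peak and 5 were not. The 15-bit limit and the element itself were chosen after the values were seen.

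**Figure D1:**
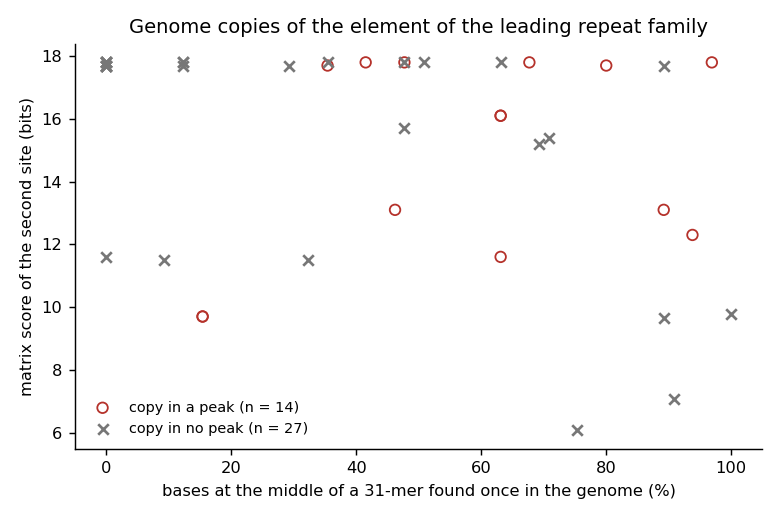
Each point is 1 of the 41 genome copies of the repeated element. The x axis gives the percent of its bases at the middle of a 31-mer found once, and the y axis the matrix score of its second site in bits. Open circles are the 14 copies in a peak and crosses the 27 in none. The crosses at the left edge include the 9 copies with no distinct base, several of them drawn on top of each other, and circles and crosses stand side by side over the rest of the plot.

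The surroundings of the family were poor in genes. Within 100 kb on each side, protein-coding genes covered 0.918 to 39.7% of the DNA around its 16 peaks, with a median of 6.97%, against a median of 45.0% for all 515 members. One of its copies, at chr1:15805583-15805647, lay 44353 bp from the nearest protein-coding gene. Its peak was the fourth farthest from a gene of all members. The best site of each family peak scored between 13.4 and 17.8 bits, with a median of 16.1.

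Repeated sequence was more frequent among the intergenic peaks than among the other peaks. Of the members, 10 of 515 (1.94%, 1.06 to 3.54%) had 50% or more of their 31-mers elsewhere in the genome, against 1 of 3037 other peaks (0.0329%, 0.00581 to 0.186%), a difference of 1.91 percentage points (1.01 to 3.50). The adjusted p was 2.19e-07 by a two-sided Fisher's exact test on peaks with Benjamini-Hochberg adjustment over the 6 shares compared, and members were higher on 5 of 5 chromosomes. Of the 10, 7 belonged to the family of 16. With that family left out, 3 of 499 members (0.601%) were repeated and the adjusted p was 0.0600, by the same exact test. At a limit of 10% of the 31-mers, 10.1% of members and 2.04% of other peaks were repeated (adjusted p = 2.53e-15, exact test). Copies of a repeat are not independent peaks, so that these p-values can be too small. The windows of 400 bp that overlapped no peak were repeated in 24.2% of cases in the same intergenic DNA, against 6.15% in upstream DNA and 1.84% in genes.

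Shared sequence also joined other intergenic peaks. Linking peaks that shared 10 or more 20-mers gave 36 families in all, of which 20 had a member and 8 held members alone. In these families were 53 members (10.3%) and 58 other peaks (1.91%). The second family held 14 peaks, 10 of them upstream of a gene and 4 of them members with best scores of 11.8 to 14 bits. The third held 6 peaks, all members, on 5 chromosomes, with best scores of 3.61 to 12.3 bits. It includes the member farthest from any protein-coding gene, at chr4:4950328-4950727. That peak lay 53568 bp from AT4G08097, in a pseudogene, with a best site of 8.29 bits.

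Per Mb, the intergenic DNA away from gene starts held fewer peaks than upstream DNA. It covered 24.9 Mb, 20.9% of the nuclear genome, and held 20.6 members per Mb (exact Poisson 95% interval 18.9 to 22.5). Upstream DNA held 48.8 peaks per Mb (46.4 to 51.4), and genes held 24.6 (23.4 to 25.8). A part of this territory is repeated at the scale of 31 bp. Counted over the 18.2 Mb whose bases stood at the middle of a 31-mer found once, members numbered 27.8 per Mb (25.4 to 30.3; 507 peaks), upstream peaks 52.2 (49.6 to 55.0) and genic peaks 25.2 (24.0 to 26.5). Intergenic DNA thus had the lower value against genes over all bases and the higher one in distinct sequence, where their intervals overlap, while upstream DNA stayed above both. With the replicates joined these densities were not tested, and the intervals cover counting error only.

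Within this territory the density fell with distance from the nearest gene end. In distinct sequence, members numbered 44.6 per Mb (36.5 to 54.0; 105 peaks) within 500 bp downstream of the end of a flanking gene and 44.7 per Mb (34.5 to 56.8; 66 peaks) from 500 to 1000 bp. Between 1000 and 2000 bp it was 34.7 per Mb (26.8 to 44.1), and between 2000 and 3000 bp it was 38.9 (28.6 to 51.8). Beyond 3000 bp it was 17.5 (14.6 to 20.8; 129 peaks). The first 4 intervals overlap, and the last lies below them all. In gaps between divergent genes, where no gene ends, the density was 24.0 per Mb (19.4 to 29.4; 94 peaks).

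**Figure D2:**
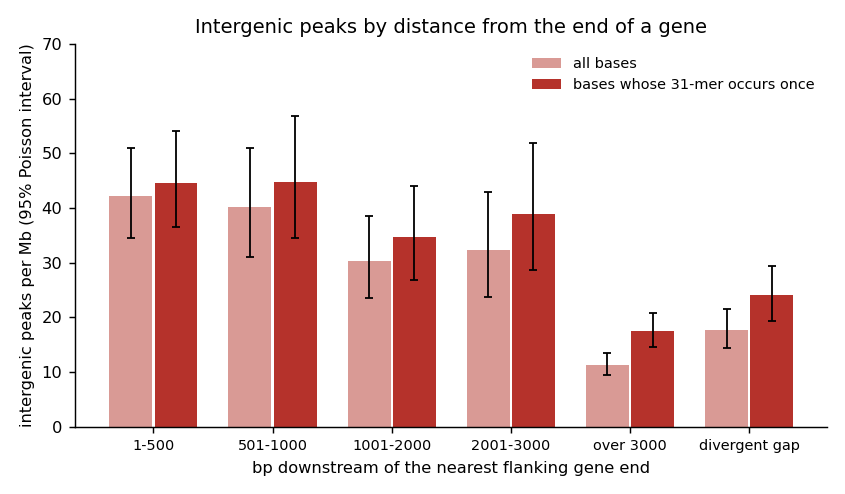
Intergenic peaks per Mb (y axis) by the distance of the midpoint downstream of the nearest flanking gene end in bp (x axis), per Mb of all bases (light) and of bases whose 31-mer occurs once (dark), with exact Poisson 95% intervals. The bars up to 3000 bp lie between 30.3 and 44.7 per Mb, and those beyond 3000 bp at 11.3 and 17.5.

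The gene content of the surroundings moved with the same density. Where genes covered less than 10% of the DNA within 100 kb on each side, members numbered 15.5 per Mb of distinct sequence (12.4 to 19.1; 88 peaks). From 10 to 30% the value was 21.4 (17.3 to 26.1; 97 peaks), from 30 to 50% it was 38.3 (30.9 to 46.9; 93 peaks), and above 50% it was 41.0 (35.8 to 46.6; 229 peaks). The lower pair of intervals lies below the upper pair. Upstream peaks showed 29.1, 31.2, 50.4 and 55.0 per Mb over the same steps, and genic peaks 22.5, 17.6, 29.2 and 25.1. Per Mb of all bases, members held 9.18, 17.1, 30.4 and 37.0.

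The lower density far from gene ends was seen in gene-poor and in gene-rich surroundings. In surroundings with a gene share under 30%, members numbered 36.1 per Mb (22.6 to 54.7; 22 peaks) within 1000 bp of a gene end and 15 (12.0 to 18.4; 89 peaks) beyond 3000 bp. With a gene share of 30% or more, the values were 46.2 (39.1 to 54.3; 149 peaks) within 1000 bp and 28.2 (20.1 to 38.4; 40 peaks) beyond 3000 bp. The intervals within 1000 bp and beyond 3000 bp did not overlap in either setting. Between the settings, the intervals overlapped within 1000 bp of a gene end (36.1 and 46.2 per Mb) and were apart beyond 3000 bp (15 and 28.2 per Mb).

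**Figure D3:**
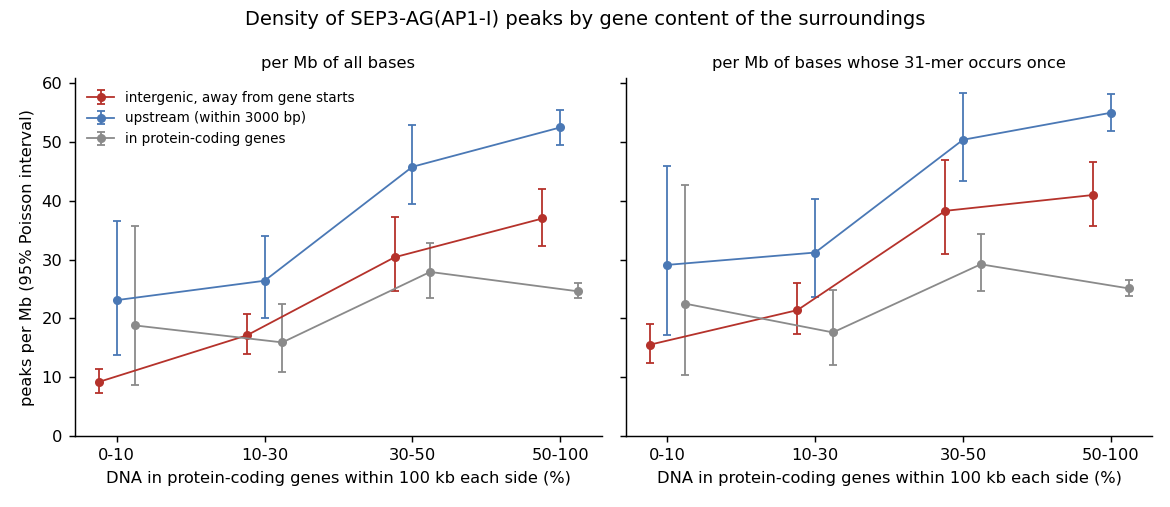
Peaks per Mb (y axis, exact Poisson 95% intervals) by the percent of DNA in protein-coding genes within 100 kb on each side (x axis), for intergenic peaks away from gene starts, upstream peaks and genic peaks, over all bases at the left and bases whose 31-mer occurs once at the right. In distinct sequence the intergenic density is 15.5 per Mb at the lowest gene share and 41.0 at the highest, with the value of upstream DNA higher at each step.

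The kinds of gap between genes had overlapping densities. Of the members, 168 (32.6%) lay between convergent genes, 251 (48.7%) between genes on the same strand and 96 (18.6%) between divergent genes. In distinct sequence these gaps held 29.2 (25 to 34), 28.6 (25.1 to 32.4) and 24.0 (19.4 to 29.4) members per Mb, with overlapping intervals. The members lay 7 to 53568 bp from the nearest protein-coding gene, with a median of 2262 bp, and 65 (12.6%) lay over 10000 bp away. By chromosome, 122, 101, 102, 77 and 113 members lay on chromosomes 1 to 5, which is 13 to 17.6% of each chromosome's peaks. Although the rule barred protein-coding genes, 44 members (8.54%) had their midpoint in another annotated gene, most often a pseudogene (28 peaks) or a long non-coding RNA gene (12 peaks).

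The CArG content of these peaks did not differ measurably from that of the rest. A canonical CArG box lay in 90 of 515 members (17.5%, 14.4 to 21%), against 477 of 3037 other peaks (15.7%, 14.5 to 17.0%) and a share of 16% over the whole list. The difference was 1.77 percentage points (-1.55 to 5.50; adjusted p = 0.531, exact test). A near-canonical box reads C, then C or T, then 6 letters A or T, then A or G, then G, and takes in the canonical form. Such a box lay in 57.7% of members and 55.8% of other peaks (difference 1.83 points, -2.83 to 6.38; adjusted p = 0.531, exact test). The other peaks were mixed in this, with 59.4% (56.8 to 61.9%) of upstream and 52.6% (50.2 to 55.1%) of genic peaks holding one. Members were not tested against genic peaks alone. A matrix site, at a threshold passed once per 2000 bp of genome, lay in 427 members (82.9%, 79.4 to 85.9%) and 2565 other peaks (84.5%, 83.1 to 85.7%), where 84.2% of all peaks held one. That difference was -1.55 points (-5.25 to 1.74; adjusted p = 0.531, exact test). Sites numbered 2 or more in 30.7% of members and 29.6% of other peaks (1.11 points, -3.06 to 5.52; adjusted p = 0.603, exact test).

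Bound intergenic DNA stood far from unbound DNA of the same territory. Of 60750 windows of 400 bp there that overlapped no peak, 2.25% held a canonical box, 14.2% a near-canonical box and 15.8% a matrix site. Over unbound windows of every territory these shares were 2.34, 13.9 and 16.3%. The median best score was 10.8 bits in members and 5.08 bits in those windows, and the median GC content 30.5% in members and 35.5% in the windows. Members ranged from 19 to 55.5% GC, and other peaks had a median of 32.8%.

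**Figure D4:**
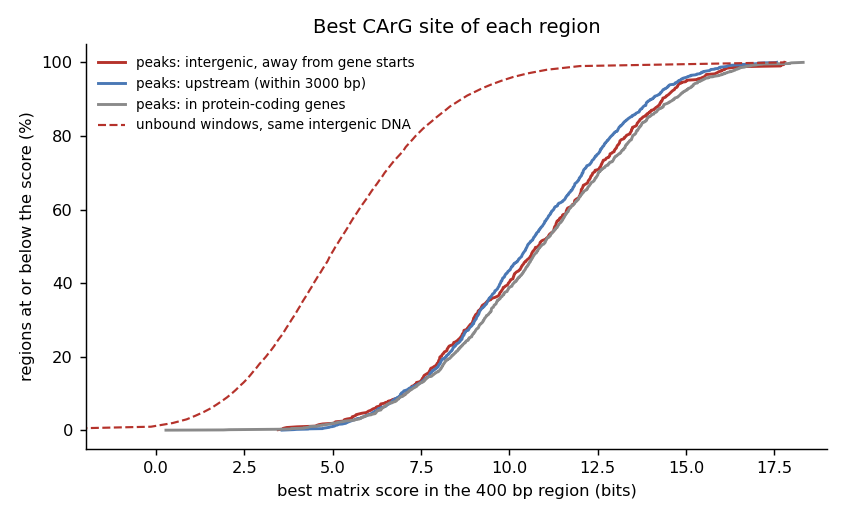
Cumulative percent of regions (y axis) by the best matrix score in the 400 bp (x axis, bits), for the intergenic peaks away from gene starts, upstream peaks and genic peaks (solid) and for unbound windows of the same intergenic DNA (dashed). The 3 solid curves run close together, with medians of 10.8, 10.5 and 10.9 bits, and the dashed curve lies to their left with a median of 5.08.

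The sites themselves had similar base shares. Among best sites that passed the threshold, the core was canonical in 74 of 427 members (17.3%) and 368 of 2565 other peaks (14.3%), and TT before with AA after the core were both present in 36.3% of members and 36.4% of other peaks. With each site counted on both strands, the fourth base of the 16 bp, the first C of the core, was C in 93.0% for members. For other peaks it was C in 93.9%. The fifth base was C in 63.0% for members and 61.1% for other peaks, with T in nearly all of the rest. The matrix allows little else at these positions, so their likeness says little about the members. A CG dinucleotide, where cytosine methylation of plant DNA is common, occurred in 9.13% of member sites and 7.84% of other sites. Repeat copies among the members were left in these counts.

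Best sites lay close to the peak centre. The median distance was 18 bp in members and 17 bp in other peaks. In 340 members (66.0%) the best-scoring site lay within 25 bp of the centre and in 446 (86.6%) within 50 bp, and other peaks had 68.9% within 25 bp. Canonical boxes lay within 25 bp of the centre in 54 of 99 cases in members (54.5%, 44.8 to 64.0%) and in 330 of 496 in other peaks (66.5%, 62.3 to 70.5%). The share in members was 53.8% without the repeat family, and this difference was not tested. The best site passed no threshold in 88 members (17.1%), while 269 (52.2%) held 1 site, 121 (23.5%) held 2 and 37 (7.18%) held 3 or more.

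**Figure D5:**
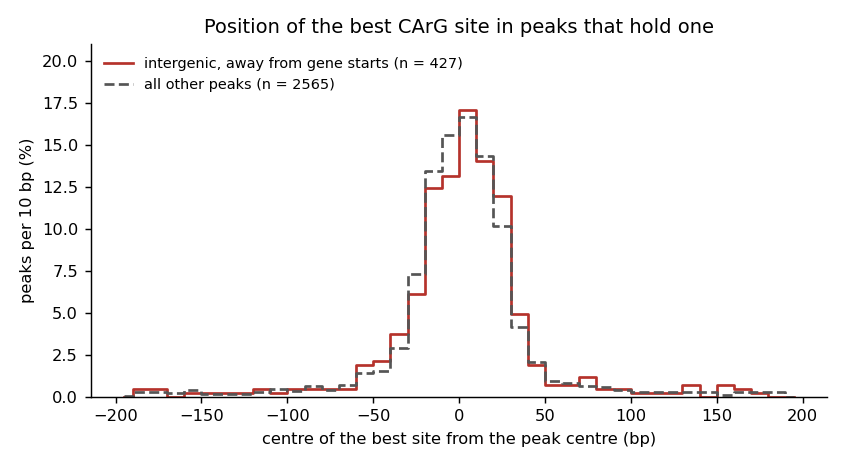
Percent of peaks per 10 bp (y axis) by the distance of the best site's centre from the peak centre in bp (x axis), for the 427 intergenic members with a site (solid) and the 2565 other peaks with one (dashed). Both curves are highest within 25 bp of the centre and run close together.

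How often a site of this territory was bound depended on its score. Counting sites in distinct sequence, 622 of 9428 (6.60%, 6.11 to 7.12%) in the intergenic DNA lay in a peak, against 9.95% in upstream DNA and 6.79% in genes. By score, the shares were 3.67% under 10 bits, 12.5% from 10 to 14 bits and 45.0% (67 of 149, 37.2 to 53.0%) at 14 bits or more. Upstream DNA gave 6.57, 16.5 and 53.6% over these steps, and genes 3.93, 11.8 and 57.4%. The matrix was fitted on peaks of the same list, so that these shares are a description. By gene share of the surroundings, sites of the intergenic DNA lay in peaks in 4.40% of cases under 10% and 8.28% above 50%.

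Distances between the cores of sites in a peak were also compared. The members held 247 pairs of sites and the other peaks 1255. Pairs up to 19 bp apart made up 14.6% of member pairs and 11.6% of other pairs, those from 20 to 49 bp 32.4 and 31.3%, and those from 50 to 80 bp 12.1 and 16.1%. The repeat family supplied 14 of the 36 member pairs up to 19 bp apart and 15 of the 80 from 20 to 49 bp. Without it, 22 of 218 member pairs (10.1%) were up to 19 bp apart, and 29.8% were 20 to 49 bp apart. The other peaks kept their repeats in this comparison, and these shares were not tested. Another peak of the list lay within 2000 bp of 60 members (11.7%, 9.16 to 14.7%) and 457 other peaks (15%, 13.8 to 16.4%), a difference of -3.40 points (-6.21 to -0.101) that missed the threshold after adjustment (adjusted p = 0.128, exact test).

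Some peaks held more sites than most. At chr1:21655598-21655997, 359 bp from ZF14, the only member with 3 canonical boxes had sites of 10.4, 13.9 and 14.4 bits, with 130 and 15 bp between the cores. Its span of 197 bp is printed with the 3 cores in capitals.
chr1:21655635-21655831, plus strand: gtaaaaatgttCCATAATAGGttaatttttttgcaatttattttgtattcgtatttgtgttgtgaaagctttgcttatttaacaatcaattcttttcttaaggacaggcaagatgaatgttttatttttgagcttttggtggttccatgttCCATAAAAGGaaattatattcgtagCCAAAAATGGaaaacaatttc
Next to this peak lay 1 more member in the same gap. No member held more than 4 sites, and 5 members held 4 each. Of the 4 of these with the highest summed scores, the peak at chr1:28243989-28244388 lay between HB33, a zinc-finger homeodomain gene, and RL6. Its best site, tttCCCAATTAGGaaa, scored 15.5 bits. A second, at chr2:5425333-5425732, lay in the pseudogene AT2G13142, in surroundings with a gene share of 4.19%. Its sites scored 12.4, 8.55, 14.7 and 10.8 bits. The other two lay in the pseudogene AT3G43144 and between AT5G37940 and AT5G37950. Apart from the peak beside HB33, each of these shared sequence with another peak of the list.

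Outside the repeat family, the highest scores were 16.5 bits at chr5:10167178-10167577, 472 bp past the end of AT5G28190, and 16.4 bits at chr4:14360909-14361308. The peak on chromosome 4 lay 5908 bp from HXK1, a hexokinase gene, and 7768 bp from ADS1. Both sites lay within 5 bp of the peak centre. Their surroundings are printed with the core in capitals, and only the first is canonical.
chr5:10167353-10167412, plus strand: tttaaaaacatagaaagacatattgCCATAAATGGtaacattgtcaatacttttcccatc
chr4:14361082-14361141, plus strand: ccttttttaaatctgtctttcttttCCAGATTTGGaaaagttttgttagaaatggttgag

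Several flower genes had a member beside them. Of 27 listed flower genes, 5 (18.5%) had a flanking member, and of 38 listed MADS genes 2 (5.26%) did, against 866 of all 27444 protein-coding genes (3.16%). Peaks within 3000 bp upstream of a listed gene are not counted by this measure, and no test was made since the lists were chosen with results of these data known. The MADS genes were AGL44, known for root responses to nitrate, and AGL42, a flowering-time gene. The peaks at AGL44 lay 9921 and 4896 bp away and scored 8.10 and 14.3 bits. The site of 8.10 bits stood at the edge of its peak, at -186 bp from the centre, and that peak shared sequence with another member. The peak at AGL42 had no site over the threshold, with a best score of 3.98 bits. No member flanked AG, AP1, AP3, PI or any of the 4 SEP genes.

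The flower genes were UFO, JAG, CRC, SUP and TFL1. JAG, a zinc-finger gene that promotes organ growth, had a peak 221 bp past its end with a canonical site of 15.3 bits. CRC, a YABBY gene of carpels and nectaries, had one 3110 bp upstream at 14.6 bits. The nearest gene to that peak was AT1G69190, with the peak 761 bp past its end. UFO, an F-box gene of floral meristems, had one 3733 bp upstream at 13.4 bits. SUP, a zinc-finger gene that limits stamen number, was flanked by 3 members, with best scores of 7.09, 14.5 and 8.71 bits. The score of 7.09 bits is under the threshold of 7.83 bits there, so that peak held no site. In the peak of 8.71 bits, 39.5% of the 31-mers occurred elsewhere in the genome. The member with the highest-scoring site lay 1587 bp past the end of SUP, between SUP and URO. TFL1, which keeps the inflorescence growing, had a peak 1479 bp past its end, with a best site of 9.47 bits. The cores at JAG, CRC and SUP are printed in capitals.
chr1:25684054-25684113 near JAG, plus strand: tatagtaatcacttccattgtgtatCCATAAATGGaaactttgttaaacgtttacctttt
chr1:26012204-26012263 near CRC, plus strand: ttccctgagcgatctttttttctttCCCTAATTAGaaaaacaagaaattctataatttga
chr3:8244929-8244988 near SUP, plus strand: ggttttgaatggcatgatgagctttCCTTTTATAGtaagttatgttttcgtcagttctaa

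Members were mostly alone in their gap. Of the 453 gaps between genes that held a member, 400 held 1, 45 held 2, 7 held 3 and 1 held 4. The gap with 4 lay between AT2G13126 and AT2G13150 and was 20183 bp long. Chosen after the values were seen, the gap between AT4G36925 and SPT, a bHLH gene of carpel margins, held 3 members with scores of 14.3, 15.6 and 16 bits, at 5624, 5126 and 4724 bp from SPT.

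The members just inside the limit lay 3005 bp from GLR2.2 and 3007 bp from AT4G04605, with best scores of 12.7 and 8.63 bits. The peaks just outside lay 2984 and 2968 bp upstream of a gene start, with best scores of 13.9 and 5.47 bits.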

How the data were processed

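Peaks were measured by seq-DAP-seq of SEP3-AG(AP1-I) in 3 replicates. The authors checked reads with FastQC, trimmed them with NGmerge, mapped them with Bowtie2 to TAIR10 without organelle genomes, removed duplicates with SAMtools, called peaks with MACS2 against input DNA and joined replicates with MSPC. Of these, the mapper, SAMtools, MACS2 and the genome also stand in the submitters' processing notes, and tool versions were not given in the sources used here. What the authors deposited is a list of positions, with no count, signal or other unit.

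Sequence and genes came from the RefSeq copy of TAIR10, whose nuclear chromosomes carry the coordinates of the deposited list. The palindromic matrix was fitted by 30 iterations of expectation maximisation on the 3037 other peaks, leaving out the chromosome being scored. The fit was also run on simulated data. In 1500 simulated regions the largest error of a base share was 4.61 percentage points, and 54.1% of planted sites were found as the best site, against 55.1% with the planted matrix itself. Every simulated region held a site. The planted matrix equalled the starting matrix of the fit except at the second base from each edge of the core. The simulation therefore cannot show how well the fit finds an unknown matrix. Families were peaks that shared 20-mers, and copies of the element were ungapped matches.

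Shares were compared by two-sided Fisher's exact tests on peaks. With 1 joined list, p-values do not measure spread between replicates, and Wilson and Poisson intervals cover counting error only. The members, the gene lists and the named regions (the highest scores, most sites, farthest from genes, listed flanking genes, 3 or more canonical boxes and the edges of the rule) were chosen with earlier results of these data known. The alternatives changed the upstream reach, the annotation, the site threshold, the window, the repeat limit, the comparison group and, after seeing the data, left out the repeat family. Python 3.11.15, numpy 2.4.6, scipy 1.17.1 and matplotlib 3.10.9 were used.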

Additional observations from a re-analysis of the deposited data

How the results depend on the processing

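Of 33 alternative values, 21 were labelled as the same, which for the shares means an unchanged direction and side of the threshold. The 21 also take in counts of members that shifted clearly from 515. These were 674 with a reach of 2000 bp, 369 when pseudogenes barred a peak and 441 when the whole 400 bp had to qualify. The number of members was 306 with a reach of 5000 bp and 296 when every annotated gene barred a peak. The density of members was 27.8 per Mb over bases whose 31-mer occurs once, 22.6 with a reach of 2000 bp and 16 with 5000 bp. The difference in near-canonical boxes turned to -0.388 points in the central 100 bp and to -1.70 against upstream peaks alone. The difference in peaks with 2 or more sites turned to -0.841 points at 1 site per 1000 bp, to -0.450 against upstream peaks and to -0.911 without the repeat family, the last chosen after seeing the data. None of these differences passed the threshold in either direction. The repeated share differed by 0 points at 90% of 31-mers, where no peak of either kind qualified, and by 0.568 points without the repeat family (adjusted p = 0.0600, exact test). The alternative that barred transposable element genes was run with pseudogenes alone. Because replicates were joined before deposit, none could be left out, and depth limits which weak sites enter the list by an amount not known here. No paired analysis was possible because the list has no replicate columns.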
